A study of Mus musculus with 58 samples.

Results

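The genes described here are 44 genes of DNA replication and S phase, taken by symbol from a table of 24537 genes measured by RNA sequencing in 58 mouse livers. All 44 were found in the table, each in a single row. They fall into 7 roles: origin licensing (11 genes), helicase activation (6), polymerases and primase (5), clamp, clamp loader and fork processing (9), chromatin assembly and maintenance (3), deoxynucleotide supply (5), and fork protection and repair (5). The study concerns interferon signalling and liver cancer in ageing. Each library was made from whole liver of male C57BL6/J mice that had received AAV8, a liver-tropic viral vector, with the TBG promoter, which is active in hepatocytes. The vector carried Myc, a growth-promoting transcription factor and oncogene, or mApple, a red fluorescent protein that serves as the control. For 30 days the mice were gavaged with vehicle or with ruxolitinib, a drug that blocks JAK1 and JAK2, the kinases that relay interferon signals. The ruxolitinib dose was 45 mg/kg, given 2 times daily except at weekends.

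The labels do not say that each library is a separate animal, so p-values measure the spread between these libraries. The old groups were AAV8-TBG-Myc with ruxolitinib (14 livers), AAV8-TBG-Myc with vehicle (11), AAV8-TBG-mApple with ruxolitinib (9) and AAV8-TBG-mApple with vehicle (8). The young groups, aged 4 months, were AAV8-TBG-Myc with ruxolitinib (10) and AAV8-TBG-mApple with vehicle (6). The libraries fall into 2 batches. The first batch held 18 libraries of old mice aged 25 months. The second held 40, with old mice aged 24 months and all the young mice, so age is compared here within the second batch alone. Young livers with Myc and vehicle were not analysed here, and the Myc effect in young livers cannot be told apart from that of ruxolitinib. In whole liver, fewer cells of a type and less RNA per cell cannot be told apart.

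Before S phase, the origin recognition complex, Cdc6 and Cdt1 load the ring of MCM proteins onto origins, and geminin (Gmnn) blocks a repeat of that loading. Cdc45 and the GINS complex turn the loaded ring into an active helicase, after which the primase and the polymerases alpha, delta and epsilon copy the strands, held by the sliding clamp PCNA. Most adult hepatocytes rest outside the cell cycle and re-enter it after liver loss or injury. E2F factors switch on many replication genes late in G1, and Myc is known to drive cells toward S phase.

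The libraries held between 10.68 M and 40.98 M (mega) counts in exons, with a median of 14.6 M. Levels are given as CPM, the share of a library's counts scaled to a common total and corrected for library composition. For a gene list, log2(CPM + 1) was averaged over its members within each library. Young Myc libraries were shallower, at 11.2 to 13.1 M, than the second-batch old Myc ruxolitinib libraries, at 11.9 to 40.98 M. A few libraries stood apart. In library 870, an old Myc vehicle liver of the first batch, Myc stood at 6.93 CPM, against 49.3 CPM in the next lowest first-batch library of its group and 25.8 CPM in the lowest of the second batch. Library 855, an old mApple vehicle liver of the first batch, had Myc at 56.7 CPM. Library 1129, a young mApple vehicle liver, had a mean replication level of 2.89 where the other 5 libraries of its group lay between 2.17 and 2.31. Libraries 860 and 861, old Myc ruxolitinib livers of the first batch, had summed Kupffer cell markers at 4935 and 3006 CPM, against 441 and 1104 CPM in the other first-batch livers of that group. Libraries 864 and 865, old mApple ruxolitinib livers of the first batch, had the lowest summed hepatocyte markers of their group, 51510 and 105700 CPM, and the highest summed bile duct and progenitor markers, 889.6 and 447 CPM. The Myc row cannot separate the vector's transcript from the liver's own gene. Markers of hepatocytes summed to between 51510 and 213900 CPM across all libraries.

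Per kilobase of transcript, the replication genes spanned a wide range of levels. Pcna had the highest median over the 58 libraries, 22.2 CPM per kb, followed by Tk1, the thymidine kinase of the salvage pathway, at 17.9, Rpa1, the large subunit of the single-strand binding protein, at 13.3, Rfc2 at 12.4 and Mcm10 at 12.3. The lowest were Orc1, the origin recognition subunit, at 0.069 CPM per kb, the exonuclease gene Exo1 at 0.079 and Cdc6 at 0.144. Orc1 was listed at 0 in 5 libraries, Exo1 in 4 and Cdc6 in 1. Orc1 passed the filter on low counts in none of the 9 comparisons. The counting command names no strand setting, so whether strand was used is not known, and 3 members share exonic bases with a gene on the opposite strand. Gins2 shares 2758 of its 3900 exonic bases with Gse1, whose median was 40.9 CPM against 1.07 CPM for Gins2. Rfc4 shares 175 of 1307 bases with Eif4a2, and Tk1 shares 83 of 1440 with Afmid, so values of these 3 genes are uncertain if strand was not used.

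By group medians, the replication genes stood higher in each Myc group than in the mApple groups of the same batch. In the second batch the median level was 2.27 in young mApple vehicle livers, 2.41 in old mApple vehicle, 2.39 in old mApple ruxolitinib, 2.71 in young Myc ruxolitinib, 2.77 in old Myc vehicle and 2.77 in old Myc ruxolitinib livers. In the first batch it was 2.39 in old mApple vehicle, 2.56 in old mApple ruxolitinib, 3.23 in old Myc vehicle and 3.54 in old Myc ruxolitinib livers. The young Myc libraries ran from 2.54 to 3.06 and the second-batch old Myc ruxolitinib libraries from 2.50 to 3.25, and these ranges overlap almost entirely. The medians of the 3 Myc groups of the second batch lay closer together than the libraries within each group did.

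**Figure D1:**
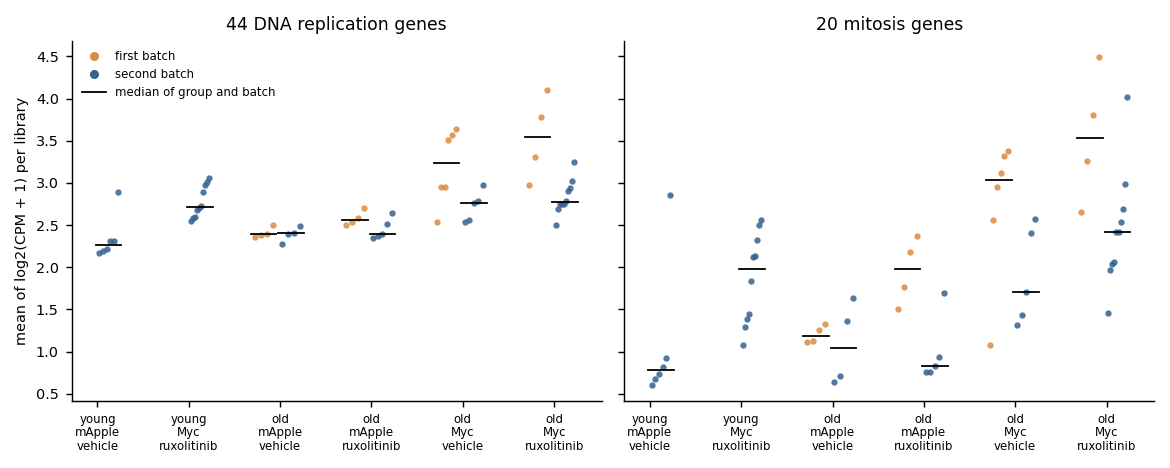
Mean log2(CPM + 1) of the 44 DNA replication genes (left) and of 20 mitosis genes (right) in each library, by group. Points are libraries coloured by batch and lines are medians of group and batch. The replication level of the young Myc livers, 2.54 to 3.06, overlaps that of the second-batch old Myc ruxolitinib livers, 2.50 to 3.25, while the single high point among young mApple livers is library 1129 at 2.89.

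The main comparison asked how replication genes differ between old and young livers that both carried Myc and had ruxolitinib (10 old against 10 young, second batch). Of 42 members tested, 5 were higher and 1 was lower in old livers. Of all 12768 genes tested, 18% were called higher and 15.6% lower, and nothing about the members as a list is read from their counts. The median log2 difference was 0.07 over the members and 0.02 over all genes. Brca1, Gmnn, Chaf1b, Timeless and Rpa2 were the higher genes and Rpa1 the lower. The marker levels that moved with this comparison are given further on.

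In origin licensing, Gmnn was the single gene past the threshold. Its product, geminin, holds Cdt1 inactive after origins have fired. Gmnn (chr13:24751845-24761937, mm10) ran from 3.63 to 5.82 CPM with a median of 4.39 in young livers, and from 5.22 to 16.9 with a median of 6.41 in old livers. The groups overlapped, and the highest old library, 1154, stood far above the next, at 8.62 CPM. The log2 difference was 0.71 ± 0.18 (SE), with an edgeR adjusted p of 0.0057. Cdt1, the MCM loader that geminin binds, ran from 3.44 to 6.32 CPM in young and from 3.51 to 7.61 in old livers. Its log2 difference of 0.24 ± 0.14 did not pass.

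The 6 subunits of the MCM ring all had differences below 0, and none passed. Mcm2 had the largest, -0.35 ± 0.16 (95% interval -0.67 to -0.03, edgeR adjusted p 0.0859). Young livers held 7.44 to 12.6 CPM of Mcm2 with a median of 9.61, and old livers 3.89 to 12.4 with a median of 7.33, so the groups overlapped. Without library 1149, an old liver, Mcm2 passed the threshold, with a log2 difference of -0.46 and an edgeR adjusted p of 0.0158. The other subunits lay between -0.32 for Mcm6 and -0.03 for Mcm4.

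No gene of helicase activation and no polymerase gene passed. Gins2, a subunit of the GINS complex, had a log2 difference of 0.36 ± 0.25, and Gins4 one of 0.09 ± 0.08. Pola2, the accessory subunit of polymerase alpha, was nearest the threshold, at 0.20 ± 0.08 with an edgeR adjusted p of 0.0545. It passed in 6 of 25 alternative fits. Pold1, the catalytic subunit of polymerase delta, had a difference of -0.21 ± 0.13. Mcm10 had one of 0.02, with a 95% interval from -0.28 to 0.32.

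The subunits of replication protein A, which coats single-stranded DNA, went opposite ways. Rpa1 (chr11:75300259-75348383) ran from 42.0 to 60.4 CPM with a median of 50.8 in young livers and from 34.4 to 48.9 with a median of 42.1 in old livers. It was lower in old livers by a log2 difference of -0.28 ± 0.07 (edgeR adjusted p 0.00687). Rpa2 (chr4:132768360-132778746) ran from 4.53 to 6.82 CPM in young and from 5.40 to 8.96 in old livers, and was higher by 0.39 ± 0.11 (adjusted p 0.00712). In both genes the groups overlapped. The clamp Pcna had a difference of -0.10 ± 0.09 and did not pass.

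Among chromatin genes, Chaf1b rose with age and its partner did not pass. Chaf1b (chr16:93883901-93906106) encodes a subunit of chromatin assembly factor 1, which places histones on new DNA. It ran from 1.49 to 2.98 CPM in young livers and from 2.45 to 5.37 in old livers, a log2 difference of 0.55 ± 0.17 (edgeR adjusted p 0.0148). Chaf1a, the large subunit of the same factor, had a difference of -0.01 (95% interval -0.33 to 0.32). Uhrf1, which guides maintenance of DNA methylation behind the fork, had one of 0.19 ± 0.30. None of the 5 deoxynucleotide genes passed: Dut, which removes dUTP, had a difference of -0.22 ± 0.12 and Rrm2, the regulated subunit of ribonucleotide reductase, one of 0.28 ± 0.26.

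Of fork protection and repair genes, Brca1 and Timeless were higher in old livers. Brca1 (chr11:101488764-101551955), which protects stalled forks and promotes homologous recombination, ran from 1.26 to 3.44 CPM with a median of 1.95 in young livers and from 2.44 to 5.89 with a median of 3.28 in old livers. The log2 difference was 0.79 ± 0.18 (edgeR adjusted p 0.00186), the largest among the 42 members tested. Timeless (chr10:128232063-128252941), a component of the complex that keeps helicase and polymerase together, ran from 3.80 to 5.66 CPM in young and from 4.54 to 9.38 in old livers, a difference of 0.45 ± 0.12 (adjusted p 0.00712). Brca2 had a difference of -0.06 and did not pass. The calls of Gmnn, Rpa1, Rpa2, Chaf1b, Brca1 and Timeless held in all 25 alternative fits of this comparison.

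**Figure D2:**
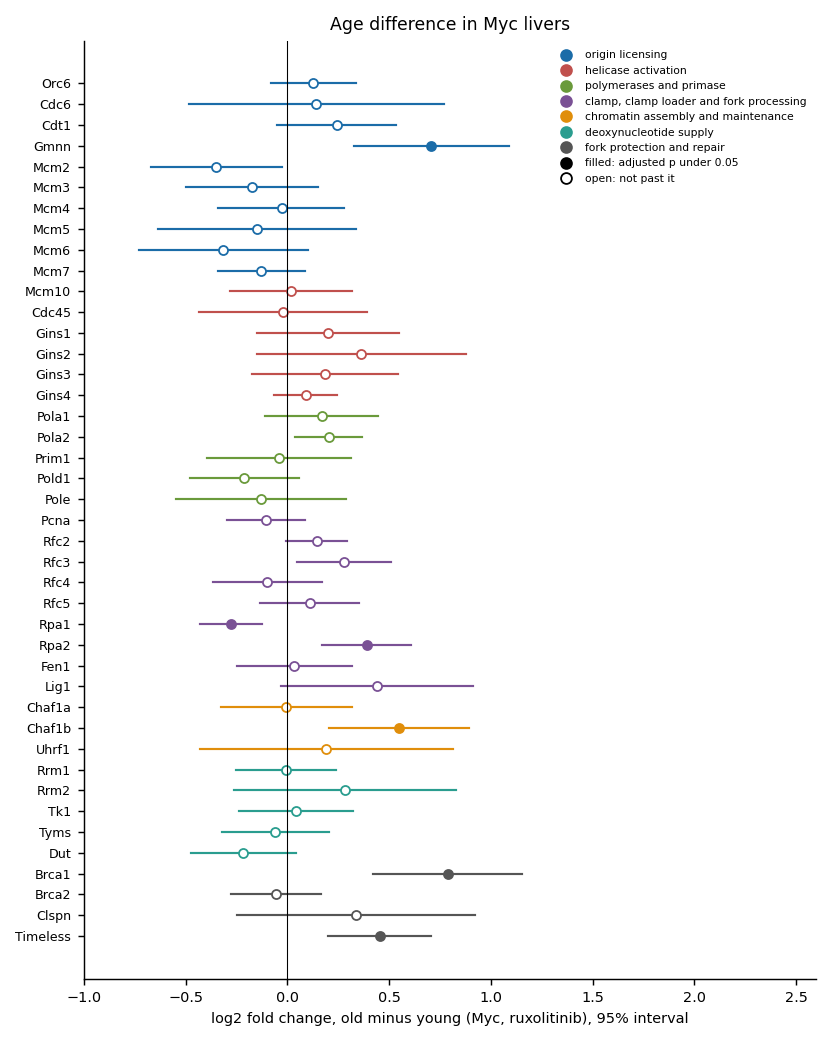
Log2 difference between old and young Myc livers with ruxolitinib, with its 95% interval, for the 42 members tested, coloured by role and ordered as in the text; filled points have an adjusted p under 0.05. Brca1 at 0.79 and Gmnn at 0.71 lie farthest to the right, Rpa1 at -0.28 is the single filled point left of 0, and the MCM subunits lie left of 0 with open points.

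Other cell cycle genes differed in the same fit. Myc itself was lower in old livers, by a log2 difference of -0.70 ± 0.10 (edgeR adjusted p 3.33e-05), with 36.0 to 61.4 CPM in young and 24.4 to 45.8 in old livers. All 20 mitosis genes had a difference above 0 and 10 passed, with a median of 0.93, where 18% of all genes were called higher. DESeq2 called 11, where 18.2% of all genes were higher, and RLE scaling and limma voom 9 each (17.4% and 20.1%). With no filter 7 were called (12.7%), and with the single fit of all 58 libraries 5 (15.5%). The mean mitosis level ran from 1.08 to 2.56 (median 1.98) in young livers. In old livers it ran from 1.46 to 4.02 (median 2.42). The groups overlapped, and the highest old library, 1149, stood far above the next, at 2.98. In the main fit Ccnb2, a mitotic cyclin, was higher by 1.48 ± 0.39 (edgeR adjusted p 0.00609). Cdc20, an activator of the anaphase-promoting complex, was higher by 1.40 ± 0.44 (adjusted p 0.0169). Kif20a, a kinesin of cytokinesis, was higher by 1.07 ± 0.31 (adjusted p 0.0118). Mki67, the proliferation marker, had a difference of 0.57 ± 0.38 and did not pass. Of the kinases, cyclins and inhibitors of S phase, 4 of 19 tested were higher and 4 lower. The shares of all genes were 18% and 15.6%, so nothing about that list is read from its counts. Cdkn1b, which encodes the inhibitor p27, was higher by 0.36 ± 0.07. Cyclin Ccnd2 was lower, at -0.97 ± 0.21, and so was its partner kinase Cdk6, at -0.25 ± 0.06.

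Replication genes outside the 44 also went both ways. Of 32 tested of the other replication machinery, 2 were higher and 5 lower. With 18% of all genes higher and 15.6% lower, nothing about this list or the next is read from its counts. Pold2, an accessory subunit of polymerase delta, was lower (-0.36 ± 0.06), as was the origin recognition subunit Orc4 (-0.27 ± 0.05), while the small polymerase delta subunit Pold4 was higher (0.66 ± 0.16). Of 20 genes of the replication checkpoint and homologous recombination tested, 1 was higher, the recombination gene Xrcc3 (0.27 ± 0.09), and 3 were lower, among them the checkpoint clamp subunit Hus1 (-0.30 ± 0.08).

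Marker lists moved in this comparison too. Of Kupffer cell markers 4 of 9 tested were higher in old livers, and of leukocyte and recruited myeloid markers 4 of 7. Of all genes 18% were higher. Only 3 of 6 B and plasma cell markers and 2 of 6 neutrophil markers passed the filter on low counts. Old libraries alone could carry a marker past that filter, so the calls of both lists are not read. Sinusoidal endothelial markers were lower, 4 of 6, where 15.6% of all genes were. The summed leukocyte and recruited myeloid markers ran from 42.0 to 96.3 CPM in young livers and from 54.3 to 153 in old livers. The summed B and plasma cell markers ran from 2.21 to 4.62 and from 3.66 to 19.4 CPM. No marker of these summed lists was at 0 in all libraries of a group. Their part in the differences of the replication genes was not tested.

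Between old and young mApple vehicle livers (4 against 6, second batch), 0 of 39 members tested were called. Of all 13196 genes, 1.11% were called in either direction. At an unadjusted p under 0.05 there were 4 members, beside 2369 of all genes. DESeq2 called 1 member, lower in old livers, where 1.64% of all genes were lower. By limma voom 1 member was higher and 3 lower, where 8.22% of all genes were higher and 4.19% lower. The median difference was 0.04 with 22 of 39 members above 0. In a single fit of all 58 libraries it turned to -0.23 with 10 of 43 above 0, against -0.03 over all genes, and 0 members were called. Library 1129 moved single genes here: without it Chaf1b was higher in old livers, with a log2 difference of 1.10 (edgeR adjusted p 0.0337), Rrm2 was lower, at -0.64 (adjusted p 0.0337), and the median became 0.16. Fits of this comparison that left out 1 library called 30 to 511 of all genes, against 147 in the main fit.

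With Myc, replication genes were higher in old livers under either treatment. Under vehicle (11 Myc against 8 mApple, both batches), 27 of 43 members were higher and 0 lower, where 10.8% of all 13578 genes were called higher and 8.07% lower. Under ruxolitinib (14 against 9), 31 of 43 were higher and 0 lower, where 8.44% of all 14029 genes were called higher and 5.94% lower. The median log2 difference was 0.66 in each, against -0.02 and 0.01 over all genes. Of the genes called, 23 were shared, 85.2% of the vehicle list and 74.2% of the ruxolitinib list, and the 2 comparisons use different livers. Mcm10, Gins1, Pold1 and Rfc5 were called under vehicle only, and Cdc6, Gins3, Pola2, Pcna, Rpa2, Brca1, Clspn and Timeless under ruxolitinib only. The difference between treatments was not tested for these genes.

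Licensing genes were among the most raised. Mcm6, a subunit of the ring, stood at 5.38, 4.57, 7.07 and 6.57 CPM in the first-batch and 4.37, 10.2, 6.59 and 3.89 CPM in the second-batch mApple vehicle livers. In Myc vehicle livers it ran from 6.504 to 46.0 CPM among first-batch and from 7.23 to 20.7 among second-batch livers. The lowest first-batch value belonged to library 870, which had little Myc. Mcm6 was higher by 1.66 ± 0.33 under vehicle (edgeR adjusted p 0.00156) and by 1.59 ± 0.24 under ruxolitinib (adjusted p 0.000211). Mcm5 was higher by 1.66 and 1.39, Mcm2 by 1.16 and 1.31, Cdt1 by 1.06 and 1.25. Gmnn, with 0.24 and 0.55, passed in neither.

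In other roles single genes had the largest differences. Uhrf1 was higher by 2.10 ± 0.49 under vehicle (edgeR adjusted p 0.00523) and 2.04 ± 0.41 under ruxolitinib (adjusted p 0.00187). In mApple vehicle livers it ran from 0.35 to 2.32 CPM and in Myc vehicle livers from 1.30 to 21.8, so the groups overlapped. Pole, the catalytic subunit of polymerase epsilon, was higher by 1.81 and 1.55. Exo1, an exonuclease of mismatch repair, was higher by 1.97 and 2.22. Its group medians ran from 0.04 CPM in young mApple to 2.49 CPM in first-batch old Myc ruxolitinib livers. Old mApple livers held at most 0.399 CPM of Exo1 under vehicle and 0.452 CPM under ruxolitinib. Myc livers alone could carry Exo1 past the filter on low counts, so its differences are not read. Gins2 was higher by 1.53 and 1.60, with the overlap with Gse1 given above and at most 0.802 CPM in old mApple vehicle livers. Among deoxynucleotide genes Rrm2, Dut, Tyms and Rrm1 were called in both. Rpa1 was higher by 0.70 ± 0.10 and 0.48 ± 0.08.

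Some members passed in neither. Tk1 had a log2 difference of 0.09 ± 0.13 under vehicle and 0.08 ± 0.16 under ruxolitinib, and its medians lay between 19.7 and 30.3 CPM in all groups and batches. Rfc2, a subunit of the clamp loader, had 0.13 ± 0.09 and -0.03 ± 0.07. By contrast Rfc4, another subunit of that loader, was higher by 1.04 ± 0.17 and 0.78 ± 0.14. The overlaps of Tk1 with Afmid and of Rfc4 with Eif4a2, given above, limit both readings.

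The size of the Myc difference varied with the batch. Under vehicle the median over members was 0.97 in the first batch alone (15 of 43 higher, where 4.06% of all genes were) and 0.34 in the second alone (4 of 42 higher, where 3.27% of all genes were). Under ruxolitinib it was 1.07 in the first batch (4 livers against 4) and 0.39 in the second (13 of 43 higher, where 7.18% of all genes were). In that first-batch fit edgeR called 0 of all 13580 genes, so its 0 of 43 members says nothing about the members. Without a batch term, 13 members were higher under ruxolitinib, where 4.74% of all genes were. The difference between batches was not tested, and batch, age in months and Myc level moved together: Myc had a median of 92.2 CPM in first-batch and 35.7 CPM in second-batch Myc vehicle livers. Without library 870, 30 of 43 members were higher under vehicle, where 13.1% of all genes were. Without libraries 860, 861, 864 and 865, whose cell markers stood apart as given above, 21 of 43 members were higher under ruxolitinib. Their median was 0.42, and 8.94% of all genes were higher. Libraries 860 and 861 held 46.6 and 35.9 CPM of Mcm2, where 868 and 869 held 14.7 and 11.2. They were also the livers with the highest Kupffer cell, leukocyte and proliferation marker levels of that group, Mki67 standing at 111 and 77.5 CPM. The part of those cells was not tested.

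**Figure D3:**
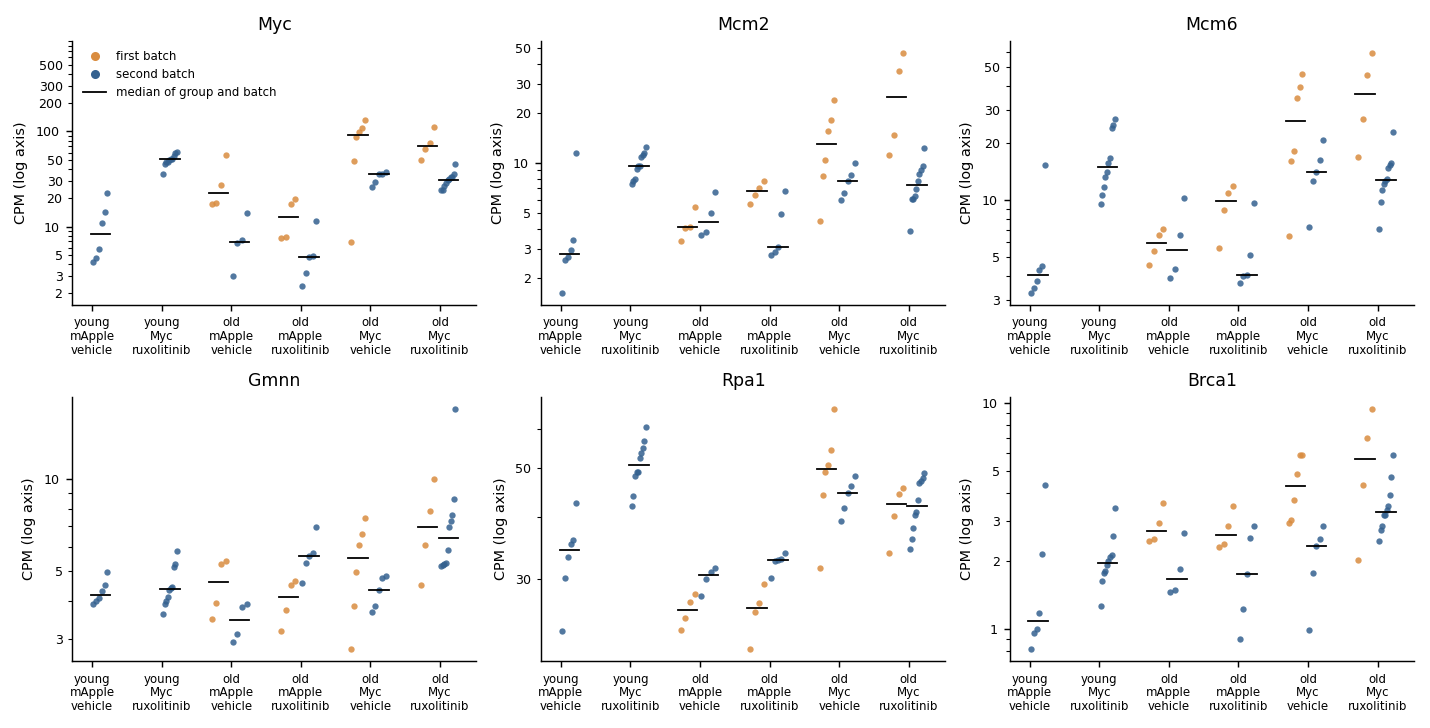
CPM on a log axis for Myc and for Mcm2, Mcm6, Gmnn, Rpa1 and Brca1 in each library, by group and batch, with the median of each. Mcm2 and Mcm6 are high in library 1129, the top point among young mApple livers at 11.4 and 15.4 CPM, and Gmnn peaks at 16.9 CPM in a second-batch old Myc ruxolitinib liver.

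Windows of the 250 bases upstream of the annotated start, from RefSeq on GRCm38.p6 (mm10), were found for 36 of the 44 genes. In 32 of these the window lies within 50 bases of the start in the count table. TTTCGCGC or TTTGGCGC, the letters of strong E2F sites, occurred on either strand in 5 of 36 (13.9%), against 0.85% of 17565 genes with a window. The 5 were Mcm5, Mcm6, Orc1, Pola1 and Rfc3. The E-box CACGTG, the letters that Myc and Max are known to bind, occurred in 5 of 36 (13.9%), against 6.87% of all genes: Pola2, Rpa1, Fen1, Chaf1a and Tyms. CCAAT was found in 61.1% against 35.9%, and GGGCGG in 61.1% against 43.7%. Genes with a match were both raised by Myc and not: Mcm5 and Mcm6 were, while Rfc3 had 0.17 under vehicle and did not pass. These matches describe letters only. The windows printed are those of Mcm5 (chr8:75109259-75109508, plus strand) and Mcm6 (chr1:128359706-128359955, minus strand), the strongest responders of the ring, and Rpa1 (chr11:75348384-75348633, minus strand), the gene lower with age, each 5′ to 3′ with E2F or E-box letters in capitals. Overlapping matches in Mcm5 start 153 and 149 bases before the start. Those in Mcm6 start 110, 106 and 47 bases before it.

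Mcm5: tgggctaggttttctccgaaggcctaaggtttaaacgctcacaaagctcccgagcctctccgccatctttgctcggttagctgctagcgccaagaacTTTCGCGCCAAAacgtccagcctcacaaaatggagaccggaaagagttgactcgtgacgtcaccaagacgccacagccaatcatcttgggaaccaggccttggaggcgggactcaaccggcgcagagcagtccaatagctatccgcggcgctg

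Mcm6: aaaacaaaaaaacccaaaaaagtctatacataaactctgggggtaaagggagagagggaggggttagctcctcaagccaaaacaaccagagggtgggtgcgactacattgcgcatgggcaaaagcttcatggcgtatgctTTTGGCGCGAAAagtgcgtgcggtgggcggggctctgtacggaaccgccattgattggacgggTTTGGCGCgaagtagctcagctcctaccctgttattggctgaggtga

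Rpa1: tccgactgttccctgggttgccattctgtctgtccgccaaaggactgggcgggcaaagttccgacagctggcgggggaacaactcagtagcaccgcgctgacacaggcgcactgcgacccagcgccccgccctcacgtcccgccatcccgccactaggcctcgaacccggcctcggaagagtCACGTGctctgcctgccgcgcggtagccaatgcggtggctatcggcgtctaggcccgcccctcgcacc

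Myc with ruxolitinib was also compared with mApple with vehicle at each age within the second batch. In young livers (10 against 6), 18 of 41 members were higher and 1, Mcm10, was lower, where 13.5% of all 12829 genes were called higher and 14% lower. In old livers (10 against 4), 15 of 43 were higher and 0 lower, where 6.56% of all 13789 genes were called higher and 4.35% lower. The median difference was 0.52 at both ages. Of the genes called higher, 9 were shared, 50% of the young list and 60% of the old list. Mcm2, Mcm3, Mcm4, Mcm5, Mcm7, Cdc45, Pold1, Fen1 and Uhrf1 were called in young livers only, and Gmnn, Gins2, Rrm1, Rrm2, Brca1 and Exo1 in old livers only. The limit that the filter sets on Exo1, given above, holds here too.

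Mcm2 shows how library 1129 weighs on the young comparison. It stood at 11.4 CPM in 1129 and at 2.68, 2.96, 2.57, 3.41 and 1.63 CPM in the other young mApple livers, against 7.44 to 12.6 CPM in young Myc livers. The groups overlapped only through that library. The log2 difference was 1.26 ± 0.30 with it and 1.86 without it. Without library 1129, 29 of 42 members were higher and 1 lower with a median of 0.68, and Uhrf1 was higher by 2.85, Mcm6 by 2.12, Mcm5 by 2.05 and Pole by 1.73. Mitosis genes called higher went from 0 of 19 in the main fit, where 13.5% of all genes were higher, to 18 of 19. In library 1129 Myc stood at 4.65 CPM, within its group's range, while Mki67 stood at 19.98 CPM against 0.83 to 3.17 in the others, and the Kupffer cell markers summed to 475 CPM against 185 to 266. Without library 1132, another young mApple liver, 12 members were called. In young livers the fits that left out 1 library, that without 1129 among them, called 3195 to 3794 of all genes, against 3531 in the main fit. In old livers 3 members were called without library 1135 and 8 without library 1137, both mApple vehicle livers. There such fits called 533 to 1657 of all genes, against 1505 in the main fit. The share of all genes called in each is not given here, so the counts of 3 and 8 are not read.

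Whether the response to Myc with ruxolitinib differed by age was tested as an interaction over 30 second-batch livers. By edgeR 0 of 43 members were called, and 0.256% of all 13652 genes were called in either direction. At an unadjusted p under 0.05 there were 5 members, beside 1910 of all genes. DESeq2 called 0 members. By limma voom 3 members were higher and 1 lower, where 1.64% of all genes were higher and 2.79% lower. The median was 0.00 with 21 of 43 members above 0. In a single fit of all 58 libraries 0 members were called, but the median was 0.38 with 40 of 43 above 0, against 0.045 over all genes. The lists called at one age only are therefore not shown to differ between ages. Gmnn had the smallest p, with an interaction of 0.996 ± 0.29 (95% interval 0.40 to 1.59, edgeR adjusted p 0.115), that is, a larger difference in old livers. Rrm2 had 1.05 ± 0.43 and Gins4 0.48 ± 0.15. Mcm2 had -0.59 ± 0.42, and -1.18 without library 1129 (edgeR adjusted p 0.0614). The intervals leave room for differences of about the size of the responses themselves, such as -1.44 to 0.26 for Mcm2.

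**Figure D4:**
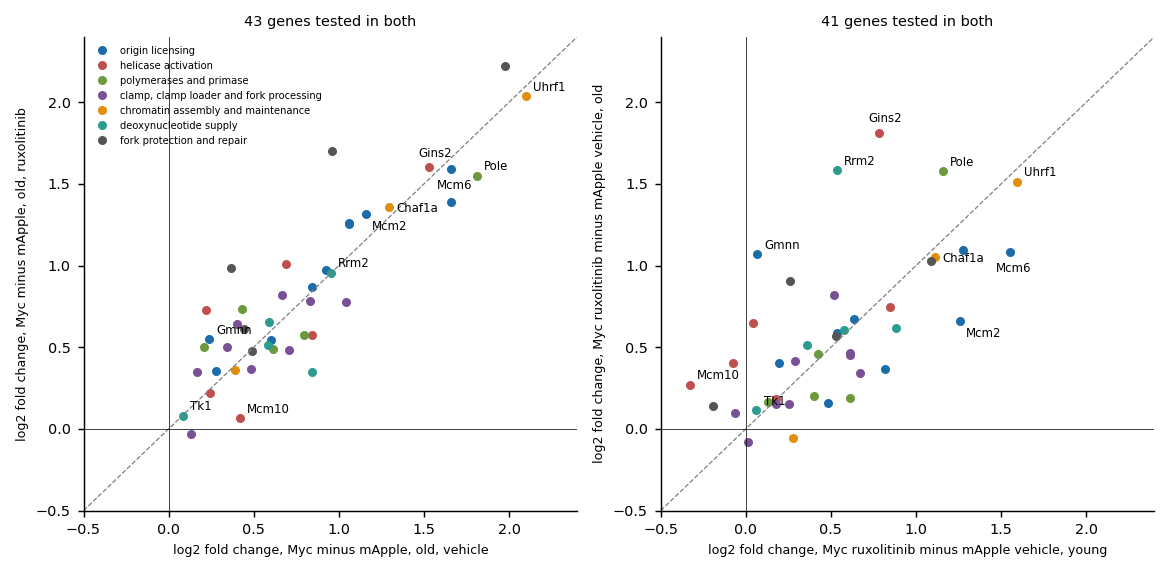
Log2 differences of members tested in both comparisons, coloured by role, with the line of equal values dashed: left, Myc against mApple in old livers under vehicle (x) and ruxolitinib (y); right, Myc with ruxolitinib against mApple with vehicle in young (x) and old (y) livers. On the left Uhrf1 lies at 2.10 and 2.04 and Tk1 near 0 on both axes, and on the right Mcm2 (1.26 and 0.66) and Gmnn (0.07 and 1.07) lie on opposite sides of the line.

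Ruxolitinib was compared with vehicle in old livers. In Myc livers (14 against 11) 0 of 43 members were called, where 0.523% of all 13774 genes were called in either direction. At an unadjusted p under 0.05 there were 11 members, beside 1953 of all genes. DESeq2 and limma voom called 0 members. The median difference was 0.33. Within batches it was 0.47 (first) and 0.16 (second), and it was 0.08 without libraries 860 and 861. By limma voom, which here gave less weight to libraries that stood apart, it was 0.09, with 1 member at an unadjusted p under 0.05. Clspn, a mediator of the replication checkpoint, had the largest value, 1.21 ± 0.41 (edgeR adjusted p 0.224), followed by Uhrf1 at 0.76 ± 0.39. In mApple livers (9 against 8) 0 of 42 were called, where 0.39% of all 13577 genes were called in either direction. There 2 members had an unadjusted p under 0.05, beside 1317 of all genes. DESeq2 and limma voom called 0 members, and the median over members was 0.15.

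Mitosis genes had larger median differences with Myc than the replication genes. All 20 were higher in old Myc livers under vehicle, with a median of 1.84, and all 20 under ruxolitinib, with a median of 2.22. In fits of mApple livers alone, 13 of them passed the filter on low counts by age under vehicle. Between treatments in old mApple livers 19 passed it. Myc livers alone could carry the others past the filter, so the calls of those genes are not read. Under vehicle 17 of 20 were called in the first batch alone (median 2.30), where 4.06% of all genes were higher. In the second alone 0 of 19 were called (median 1.36), where 3.27% of all genes were higher. Under ruxolitinib 19 of 20 were called in the second batch alone (median 2.32), where 7.18% of all genes were higher. The first batch alone, where 0 of all genes were called, had a median of 2.10. Ccnb2 was higher by 2.05 and 2.54. For each list in the fits of both batches, the shares of all genes called were 10.8% higher and 8.07% lower under vehicle. Under ruxolitinib they were 8.44% and 5.94%. Of S-phase kinases, cyclins and inhibitors 8 of 19 were higher under vehicle and 2 lower, and 8 of 21 were higher under ruxolitinib. Of other replication machinery 12 of 33 and 12 of 34 were higher (with 1 lower under ruxolitinib), and of checkpoint and recombination genes 11 of 22 and 11 of 22. Hepatocyte markers were lower with Myc for 4 of 7 tested under vehicle and 1 of 7 under ruxolitinib, and sinusoidal endothelial markers for 5 of 6 and 2 of 6. No Kupffer cell, leukocyte, B cell or neutrophil marker was called higher in either.

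Relations between the level of Myc and the members were sought within groups. Over the 10 young Myc livers the median Pearson r of log2(CPM + 1) with Myc was -0.23 and the median Spearman rho -0.13. Over the 10 second-batch old Myc ruxolitinib livers they were -0.20 and 0.06. After adjustment over the 44 members, 0 passed in either group by permutation, with smallest adjusted p of 0.858 and 0.766. Leaving out the 2 livers farthest from the median of Myc gave a median r of 0.43 in young and -0.19 in old livers, so the sign in young livers rests on those 2.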

How the data were processed

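Reads from polyA libraries of 58 mouse livers had been aligned with STAR to GRCm38/mm10 and counted in exons with HOMER, per the submitters' processing notes; versions are not given in the sources used here. The authors deposited expected counts (estimated counts) per gene, 1 transcript per symbol, in steps of 0.5, with 29.9% of values not whole; per the file headers no strand setting was named. Values were rounded to whole counts. Groups came from the labels. Differences were fitted with edgeR 4.0.16 (R 4.3.3; TMM scaling, genes filtered at a minimum count of 10, quasi-likelihood test), with batch as a term where both batches entered, and Benjamini-Hochberg adjustment over all genes tested at a threshold of 0.05. CPM used TMM factors over all 58 libraries and a pseudocount of 1 for logs. The scripts were tested on simulated data. No 2 of 164 library pairs within groups held identical values.

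Alternatives were RLE scaling, DESeq2 1.42.0, limma voom 3.58.1, no filter, a single fit of all libraries, no batch term, each batch alone and leaving out libraries. Every limma voom fit used quality weights per library, which give less weight to libraries that stand apart. Its results therefore differ from edgeR in these weights as well as in the test. Full statistics were given for Myc, Mki67, the 2 members of each role with the smallest p for age in Myc livers (3 in origin licensing) and the 3 such genes of each other list, of which 1 is not reported here. Members named beyond these, such as Mcm6, Pole, Exo1 and Clspn, were chosen after their values were seen. The members and lists were chosen with earlier results of these data known.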

Additional observations from a re-analysis of the deposited data

Results flagged for a closer look

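Within groups of 4 to 10 libraries of a batch, the gap between the highest or lowest library and its neighbour was set against the group's range by Dixon's 95% criterion. Of 170 series of values tested (17 items), 13 passed, where chance gives about 1 in 20. Library 1129 of the young mApple vehicle livers passed 4 times, with a mean level of all members of 2.89, Mcm2 at 11.4 CPM, Chaf1b at 3.43 CPM and Uhrf1 at 4.49 CPM. In the same group Pold1 stood apart in library 1134 at 2.27 CPM. In second-batch old Myc ruxolitinib livers, Gmnn in library 1154 stood at 16.9 CPM, Pold1 in library 1154 at 2.97 CPM and Timeless in library 1149 at 9.38 CPM. In old Myc vehicle livers, Myc in library 870 stood at 6.93 CPM and Gins4 in library 1145 at 11.6 CPM. In old mApple livers, Rpa2 in library 1137 stood at 6.25 CPM, Uhrf1 in library 855 at 0.913 CPM and Uhrf1 in library 1140, a ruxolitinib liver, at 3.31 CPM.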

How the results depend on the processing

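No paired analysis was possible because the groups share no replicate numbers. Members called between old and young Myc livers went from 6 to 10 with limma voom. The shares of all genes went from 18% higher and 15.6% lower to 20.1% and 19.5%. Members called between old and young mApple livers went from 0 to 1 with DESeq2 and 4 with limma voom. There the share of all genes called higher went from 0.849% to 3.39% and 8.22%, and lower from 0.265% to 1.64% and 4.19%. For Myc in old vehicle livers members called went from 27 to 15 in the first batch alone and 4 in the second alone. All genes called higher went from 10.8% to 4.06% and 3.27%. For Myc in old ruxolitinib livers members called went from 31 to 13 with no batch term, 0 in the first batch alone and 13 in the second alone. All genes called higher went from 8.44% to 4.74%, 0% and 7.18%. For Myc with ruxolitinib in old livers members called went from 15 to 26 with limma voom and 38 with a single fit of all 58 libraries. All genes called higher went from 6.56% to 11% and 15.2%. For ruxolitinib in old Myc livers members called went from 0 to 1 with that single fit, where 1.14% of all genes were higher and 1.15% lower. For the interaction members called went from 0 to 4 with limma voom, where 1.64% of all genes were higher and 2.79% lower. The single fit also moved the median over members from 0.04 to -0.23 for age in mApple livers and from 0.00 to 0.38 for the interaction. Leaving out 1 library at a time gave 6 to 9 members called for age in Myc livers, 0 to 2 for age in mApple livers, 22 to 30 and 26 to 34 for Myc in old vehicle and ruxolitinib livers, 0 to 0 for ruxolitinib in either old group, 12 to 30 and 3 to 18 for Myc with ruxolitinib in young and old livers, and 0 to 1 for the interaction, where libraries 1138 and 1154 each gave 1. Uhrf1 between old and young Myc livers reversed from 0.19 to -0.002 without old Myc ruxolitinib library 1149 (edgeR adjusted p 0.997), and leaving out 1 library at a time spanned -0.002 to 0.335; the cause was not tested. Over the fits that left out 1 library, all genes called ran from 3827 to 4782 for age in Myc livers. They ran from 1914 to 3070 and 1542 to 2248 for Myc in old vehicle and ruxolitinib livers. For Myc with ruxolitinib they ran from 3195 to 3794 in young and from 533 to 1657 in old livers. For age in mApple livers they ran from 30 to 511, and for the interaction from 3 to 77. Groups of 4 to 6 libraries limit the comparisons with mApple vehicle livers in the second batch.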
